A study of Mus musculus with 4 samples.

Results

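A set of 10 heat shock genes was measured in the colon monocytes and macrophages of 4 mice: the HSP70 genes Hspa1a, Hspa1b and Hspa8, the HSP40 genes Dnajb1 and Dnaja1, the HSP90 gene Hsp90aa1, the HSP110 gene Hsph1, the small heat shock gene Hspb1, the mitochondrial co-chaperonin gene Hspe1 and the co-chaperone gene Bag3. These 10 genes of the 28692 in the count table were picked with their lower levels in exposed mice already known, so the difference between exposed and control mice is described for them and not tested. All 10 passed the filter on low values in the comparisons between cell classes, Hspb1 in part only through the class where it was higher.

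The mice were male C57/Bl6N animals. DEP 11 and DEP 13 were given 12 µg of diesel exhaust particles (DEP) in 200 µL of phosphate-buffered saline (PBS) by gavage on 5 days a week over about 6 months, and PBS 2 and PBS 3 were given PBS alone. No age or genotype other than the strain was stated. Cells of the lamina propria were sorted for CD11b together with Ly6C or CD64, a gate for monocytes and macrophages, and each mouse was loaded in its own 10x Genomics well, so the mouse cannot be told apart from its library. Molecules were counted by unique molecular identifiers (UMIs) at the 3' ends of transcripts, and levels are given as CPM, the UMIs of a gene per 1000000 UMIs of the summed barcodes.

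Of 6954 barcodes, 4771 held at least 1000 UMIs and were used: 1218 in DEP 11 and 675 in DEP 13, against 1296 in PBS 2 and 1582 in PBS 3, with medians of 5328.5 to 7115.5 UMIs and median mitochondrial shares of 1.64% to 2.02%. The totals ran from 4357153 UMIs in DEP 13 to 10063287 in PBS 2, and the precision of each value depends on the gene's own UMIs. The barcodes were put into classes by rule. Barcodes with at least 2 UMIs of Cd3d, Cd3e and Cd3g, or at least 2% of their UMIs from 8 immunoglobulin genes, were called Cd3-or-Ig (184 barcodes). Of the others, those with at least 20 C1qa UMIs per 10000 were called C1qa-high (1931 barcodes), and those with at least 1 Ly6c2 UMI were called Ly6c2-positive (1014 barcodes). The 858 barcodes that met both of the last 2 rules and the 784 that met neither were kept apart. The summed level of 9 monocyte markers was 6022 to 7447 CPM in the Ly6c2-positive class against 629 to 968 in the C1qa-high class. That of 9 macrophage markers was 50404 to 59012 in the C1qa-high class against 12263 to 19311 in the Ly6c2-positive class. Ly6c2 and C1qa, which set the classes, are among these markers. The sums are therefore partly fixed by the rules and are no independent check of the cell types.

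Heat shock proteins are chaperones: they bind unfolded proteins, help them fold and hold them back from aggregating. HSP70 proteins work in cycles with HSP40 proteins, which deliver substrates, and with nucleotide exchange factors such as HSP110 and BAG proteins, which let the substrate go. Many of their genes are switched on together by heat shock factors, which bind repeated GAA units (heat shock elements) upstream of the gene when cells meet heat, oxidation or other stress that unfolds proteins. Bag3 links HSP70 and small heat shock proteins to autophagy.

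Because one factor is known to act on many of these genes through a short motif, their upstream sequences were searched for it. RefSeq promoters (GRCm38.p6) were found for 8 of the 10 genes, and Hspa8 and Hsp90aa1 had no entry. The search covered the 250 bases before each start site for 2 facing GAA units, spelled GAANNTTC or TTCNNGAA (each reads the same on both strands, and the 2 spellings can overlap). At least 1 match was present for 6 of the 8 genes (Hspa1a, Hspa1b, Hspb1, Hsph1, Dnaja1 and Hspe1), and none was found for Dnajb1 or Bag3. Some genes have several start sites: of the 12 windows of these 8 genes 7 held a match, and of all 32851 windows of this length, 12.8% did. The 2 windows of Hsph1 overlap and hold the same match, and those of Hspa1a and Hspa1b are near-identical, so the 7 are not separate sites. A match is only a run of letters in this window. The sequences, 5′ to 3′ with matches in capitals, are those of the near-identical pair Hspa1a and Hspa1b, of Hspb1 with its 2 matches, and of Bag3 with none.
Hspa1a, chr17:34972157-34972406, minus strand: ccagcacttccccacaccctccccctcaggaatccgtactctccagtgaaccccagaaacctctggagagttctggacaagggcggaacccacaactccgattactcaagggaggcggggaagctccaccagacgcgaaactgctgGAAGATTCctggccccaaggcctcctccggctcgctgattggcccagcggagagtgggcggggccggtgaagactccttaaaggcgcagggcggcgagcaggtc
Hspa1b, chr17:34959239-34959488, minus strand: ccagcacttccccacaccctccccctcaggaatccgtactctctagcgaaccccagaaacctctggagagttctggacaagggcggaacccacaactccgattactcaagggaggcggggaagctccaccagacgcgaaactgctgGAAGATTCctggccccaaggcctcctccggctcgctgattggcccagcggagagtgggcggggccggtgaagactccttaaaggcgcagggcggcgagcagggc
Hspb1, chr5:135887669-135887918, plus strand: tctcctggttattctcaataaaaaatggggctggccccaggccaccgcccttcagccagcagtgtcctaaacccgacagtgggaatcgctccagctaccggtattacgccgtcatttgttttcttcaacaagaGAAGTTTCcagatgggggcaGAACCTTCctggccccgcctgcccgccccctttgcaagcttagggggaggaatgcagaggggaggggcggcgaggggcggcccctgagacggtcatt
Bag3, chr7:128523333-128523582, plus strand: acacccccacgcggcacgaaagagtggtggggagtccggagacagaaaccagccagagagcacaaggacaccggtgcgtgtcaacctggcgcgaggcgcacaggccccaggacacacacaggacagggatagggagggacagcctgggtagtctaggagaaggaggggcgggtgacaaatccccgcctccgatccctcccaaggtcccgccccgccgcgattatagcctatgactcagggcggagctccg

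Upstream of Hspa1a and Hspa1b the windows differed at 3 of 250 bases (98.8% identity), and the match began 104 bases before the start site in each. The Hspb1 matches began 117 and 97 bases before its start site. A longer element with 3 alternating units (GAANNTTCNNGAA or its reverse complement TTCNNGAANNTTC) was found upstream of Hspe1 alone among the 8 genes, and 0.466% of all windows held one. It is shown within 30 bases because it is the longest match among these genes, 18 bases of overlapping units, in capitals.
Hspe1, chr1:55088053-55088082, plus strand: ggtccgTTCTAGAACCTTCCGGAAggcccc

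The stress-inducible HSP70 genes Hspa1a and Hspa1b lie side by side on chromosome 17 (mm10, 34969190 to 34972156 and 34956436 to 34959238, minus strand) and encode nearly the same protein, so how their reads were shared between them is uncertain. Hspa1a stood at 1182 CPM in DEP 11 and 1231 in DEP 13, against 2507 in PBS 2 and 1953 in PBS 3. The DEP mice sat close together, below both PBS mice, and PBS 2 was the highest. Hspa1b stood at 129 CPM in DEP 11 and 211 in DEP 13, against 240 in PBS 2 and 244 in PBS 3. The PBS mice were nearly equal (242 ± 2.42, SD, n = 2) and DEP 13 lay nearer to them than to DEP 11. Hspa8, the constitutive HSP70 of the cytosol, was at 2312 CPM in DEP 11 and 2380 in DEP 13, against 2312 in PBS 2 and 3194 in PBS 3, so that the groups overlapped and PBS 3 stood apart from 3 nearly equal mice.

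Of the HSP40 genes, Dnajb1, the main partner of inducible HSP70, stood at 150 CPM in DEP 11 and 223 in DEP 13, against 342 in PBS 2 and 707 in PBS 3. The groups did not overlap, and PBS 3 was 2.07-fold above PBS 2. Dnaja1, another cytosolic HSP40, stood at 217 CPM in DEP 11 and 301 in DEP 13, against 245 in PBS 2 and 597 in PBS 3, and here PBS 2 lay between the DEP mice. The HSP110 gene Hsph1, an exchange factor for HSP70, was at 35.4 and 44.1 CPM in DEP 11 and DEP 13 and at 51.5 and 108 in PBS 2 and PBS 3, again with PBS 3 far above the others.

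Bag3 stood at 19.5 CPM in DEP 11 and 30.3 in DEP 13, against 51.6 in PBS 2 and 104 in PBS 3, with no overlap. Hspb1, which encodes the ATP-independent holdase HSP27, stood at 7.65 CPM in DEP 11 and 35.6 in DEP 13, against 52.2 in PBS 2 and 88.3 in PBS 3. Its 11.6-fold range over the mice was the widest of the 10 genes, and DEP 11 held only 56 of its UMIs. Hsp90aa1, the inducible cytosolic HSP90, was at 779 CPM in DEP 11 and 1120 in DEP 13, against 1196 in PBS 2 and 2273 in PBS 3, where DEP 13 and PBS 2 were close. Hspe1, which caps the mitochondrial chaperonin, was at 362, 377, 377 and 595 CPM in DEP 11, DEP 13, PBS 2 and PBS 3, a PBS 3 level above 3 like values.

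**Figure D1:**
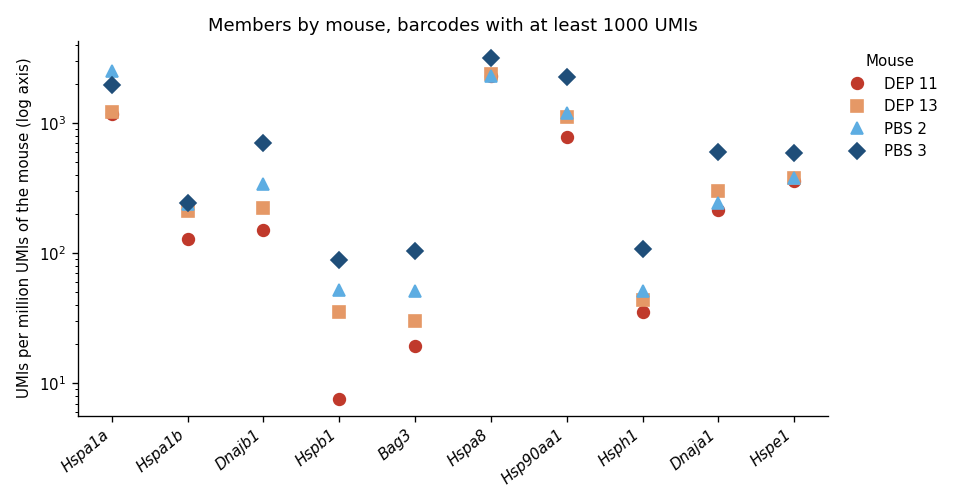
Level of each of the 10 genes in each mouse, in CPM on a log axis, over barcodes with at least 1000 UMIs; each point is 1 mouse. PBS 3 (dark diamonds) is the highest point for 9 genes, Hspa1a being the exception, and the DEP mice lie below both PBS mice for 7 genes.

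Both DEP mice lay below both PBS mice for 7 of the 10 genes, against 12.8% of the 6609 genes tested over all barcodes. The genes were picked on this contrast, so nothing is read from that count. Summed over the 10 genes, DEP mice had 5574 ± 537 and PBS mice 8619 ± 1760 CPM (mean ± SD, n = 2 each). The log2 differences (DEP minus PBS, edgeR with TMM scaling) had a median of -0.87, beside -0.007 for all genes tested, and ranged from -0.23 for Hspa8 to -1.77 for Hspb1. Bag3 was at -1.67 and Dnajb1 at -1.50. Over all genes, edgeR's quasi-likelihood test called 0 of 6609 between the exposure groups, with 171 at an unadjusted p under 0.05, and DESeq2 called 4. The edgeR count was 7 to 35 with 1 mouse left out (35 without PBS 3) and 119 of 16792 with no gene filter.

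PBS 3 was the highest of the 4 mice for 9 of the 10 genes, against 18.3% of all genes tested, and the size of most differences rested on it. Without PBS 3 the median of the 10 differences was -0.38, and Hspa8 (0.08), Dnaja1 (0.14) and Hspe1 (0.03) were no longer lower in the DEP mice. Hspa1a, by contrast, was at -0.99 without PBS 3 and between -0.95 and -0.74 with another mouse left out. For Hspb1 the exposed mice mattered most: the difference was -0.95 without DEP 11 and -3.25 without DEP 13. Hspa1b likewise moved from -0.50 to -0.15 without DEP 11 and to -0.95 without DEP 13.

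**Figure D2:**
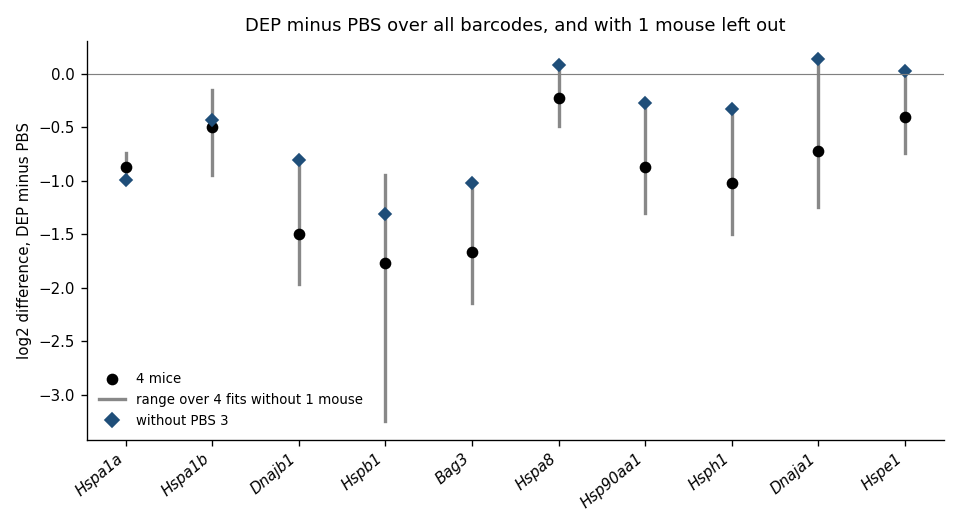
Log2 difference between DEP and PBS mice for each gene over all barcodes with at least 1000 UMIs: black points use 4 mice, grey bars span the 4 fits that each leave out 1 mouse, and blue diamonds leave out PBS 3. Without PBS 3, Hspa8, Dnaja1 and Hspe1 lie above 0, while Hspa1a stays near -0.99.

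Other features also differed between the mice. All genes named Igk, Igl, Igh or Jchain at the start, a wider set than the 8 of the class rule, were counted as immunoglobulin genes. They took 2.8% of UMIs in DEP 11 and 4.38% in DEP 13, against 1.45% in PBS 2 and 4.58% in PBS 3. With this wider set left out, the median difference of the 10 heat shock genes was also -0.87. All 8 T cell markers were found, with sums of 38.1 to 49.6 CPM in DEP mice and 50.1 to 61.1 in PBS mice. All 4 epithelial markers summed to 12.6 to 25.1 in DEP and 10.4 to 40.8 in PBS mice. The 4 fibroblast markers summed to 4.13 to 7.92 and 5.9 to 31.9. Neutrophil markers (4 listed) summed to 37.4 and 40.9 in DEP 11 and DEP 13, and to 39.7 and 29.3 in PBS 2 and PBS 3. One of them, S100a9, was at 0 in every mouse. C1qa-high barcodes made up 41.4% and 48.9% of DEP barcodes and 37.5% and 38.6% of PBS barcodes. With the barcodes that met both rules added, the shares were 57.2% and 58.5% against 62.7% and 55.9%, and the groups overlapped. The part of these features in the differences above was not tested. Levels here are sums over barcodes, so fewer cells with a gene's RNA and less RNA per cell cannot be told apart from them.

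The same order of mice was seen inside the Ly6c2-positive and C1qa-high classes. The 10 summed genes ran from DEP 11 (5588 CPM) over DEP 13 (6622) and PBS 2 (8205) to PBS 3 (10956) in Ly6c2-positive barcodes, and over 5440, 5834, 7047 and 9844 in that order in C1qa-high barcodes. Both DEP mice lay below both PBS mice for 5 of the 9 genes that passed the filter in the Ly6c2-positive class (14.7% of all genes), and for Hspb1, which did not pass it there. They did so for 7 of 10 in the C1qa-high class (15.2%) and 6 of 10 in the Cd3-or-Ig class (15.2%). PBS 3 was the highest mouse for 8 of 9, 8 of 10 and 7 of 10 in that order, against 21.6%, 21.1% and 9.72% of all genes. The Cd3-or-Ig counts use totals that include immunoglobulin RNA, 27.3% of UMIs in PBS 2 and 41.5% in PBS 3. With that RNA taken out of the totals, PBS 3 was also highest there for Hspa1a (2075 CPM, 2007 in PBS 2) and Hspa1b (290, 251 in PBS 2). For Hspa8 the groups then overlapped, with DEP 13 at 2276 and PBS 2 at 2067. Over all genes, edgeR called 0 between the exposure groups in the Ly6c2-positive and C1qa-high classes (173 and 228 at an unadjusted p under 0.05, and 0 and 3 called by DESeq2) and 0.0136% (1 of 7366) in the Cd3-or-Ig class. These counts were not stable. The C1qa-high count was 71 without PBS 2, 103 without PBS 3 and 62 with no gene filter, the Ly6c2-positive count 3 without DEP 11, 4 without PBS 2 and 41 with no gene filter, and the Cd3-or-Ig count 37 without DEP 11, 24 without DEP 13 and 61 with no gene filter. The log2 differences of Bag3 were -1.80 in the Ly6c2-positive, -1.52 in the C1qa-high and -2.34 in the Cd3-or-Ig class, where the DEP mice held 5 and 3 Bag3 UMIs. With 1 mouse left out they ranged from -2.14 to -1.40, from -2.08 to -0.62 (-0.62 without PBS 3) and from -2.72 to -1.74 in that order. Hspa1a was at -0.94, -0.77 and -0.95 in that order, and in the Cd3-or-Ig class at -0.55 without DEP 11 and -1.55 without DEP 13.

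The classes were next compared within each mouse, a contrast other than the one the genes were picked on; the classes, too, were set with earlier results of these data known. Of the 10 genes, 9 differed between Ly6c2-positive and C1qa-high barcodes (edgeR quasi-likelihood test with the mouse as a block, n = 4 mice, FDR of 5%), against 40.1% of the 6513 genes tested. Hspb1 is one of the 9 and passed the filter on low values only with the classes pooled (a UMI in 4.93% of Ly6c2-positive and 13.3% of C1qa-high barcodes, against a minimum of 5%), so its difference is given without a p-value, and 8 of the other 9 genes were called. The levels of these genes and of all genes were not matched. They did not move one way. Hspa8, Dnaja1, Hspa1b and Hspa1a (4 genes) were higher in Ly6c2-positive barcodes, and Hspb1, Dnajb1, Bag3, Hsph1 and Hspe1 (5 genes) were lower.

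Hspb1 differed the most. Its level was 2.35 CPM in Ly6c2-positive against 11.2 in C1qa-high barcodes of DEP 11, 4.88 against 28.7 in DEP 13, 14.5 against 72.9 in PBS 2 and 23.1 against 120 in PBS 3. In every mouse the C1qa-high level was several times the other, and the fitted log2 difference (Ly6c2-positive minus C1qa-high) was -2.40 (SE 0.15) and -2.39 with no gene filter, although DEP 11 and DEP 13 each gave only 3 UMIs in the Ly6c2-positive class.

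Dnajb1 followed with -1.14 (SE 0.07, edgeR adjusted p = 6.74e-12). It was at 80.8 CPM in Ly6c2-positive and 212 in C1qa-high barcodes of DEP 11, 133 and 266 in DEP 13, 169 and 362 in PBS 2, and 428 and 856 in PBS 3, thus lower in the Ly6c2-positive class of each mouse. Bag3 was at 11.8 and 22.3 CPM in DEP 11, 16.3 and 41.2 in DEP 13, 36.3 and 49.6 in PBS 2, and 57.8 and 130 in PBS 3. The Bag3 difference was -0.96 (SE 0.14, edgeR adjusted p = 4.13e-06), again in the same direction in 4 of 4 mice and smallest in PBS 2. Hsph1 was lower by the same comparison (-0.64, SE 0.11, edgeR adjusted p = 5.47e-05), in 4 of 4 mice, and just missed the threshold when thinned (-0.68, adjusted p = 0.0542).

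Hspa8 was the clearest of the genes that went the other way. It stood at 2749 CPM in Ly6c2-positive and 2237 in C1qa-high barcodes of DEP 11, 2979 and 2290 in DEP 13, 2964 and 2081 in PBS 2, and 3990 and 3023 in PBS 3. The difference of 0.35 (SE 0.05, edgeR adjusted p = 2.27e-06) was present in 4 of 4 mice, as was that of Dnaja1 (0.32, SE 0.06, edgeR adjusted p = 0.000164). With barcodes thinned to 1000 UMIs Dnaja1 was at 0.12 (edgeR adjusted p = 0.426) and was not called. The inducible HSP70 genes differed less: Hspa1a by 0.18 (SE 0.05, edgeR adjusted p = 0.00926) and Hspa1b by 0.27 (SE 0.08, edgeR adjusted p = 0.0104). Within DEP 11 the 2 classes were nearly level for both, at 1326 and 1299 CPM for Hspa1a and 136 and 140 for Hspa1b. Both calls were lost without PBS 3 (edgeR adjusted p = 0.0785 for Hspa1a and 0.125 for Hspa1b), and with DESeq2 (0.0534 and 0.0827), and that of Hspa1b also without DEP 13 (0.055). When thinned, Hspa1a was at 0.14 (edgeR adjusted p = 0.0772) and Hspa1b at 0.09 (edgeR adjusted p = 0.597).

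Hspe1 was slightly lower in Ly6c2-positive barcodes (-0.21, SE 0.06, edgeR adjusted p = 0.00669), a call that was lost without PBS 2 (0.0587), with C1qa at 50 per 10000 (-0.08, adjusted p = 0.314), with DESeq2 (0.0766) and when thinned (0.134). Hsp90aa1, at -0.17 (SE 0.07, edgeR adjusted p = 0.0506), just missed the threshold. Without PBS 2 it passed (-0.21, adjusted p = 0.0237), and without PBS 3 too (-0.25, adjusted p = 0.0127), whereas without DEP 11 it was -0.05 and did not.

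**Figure D3:**
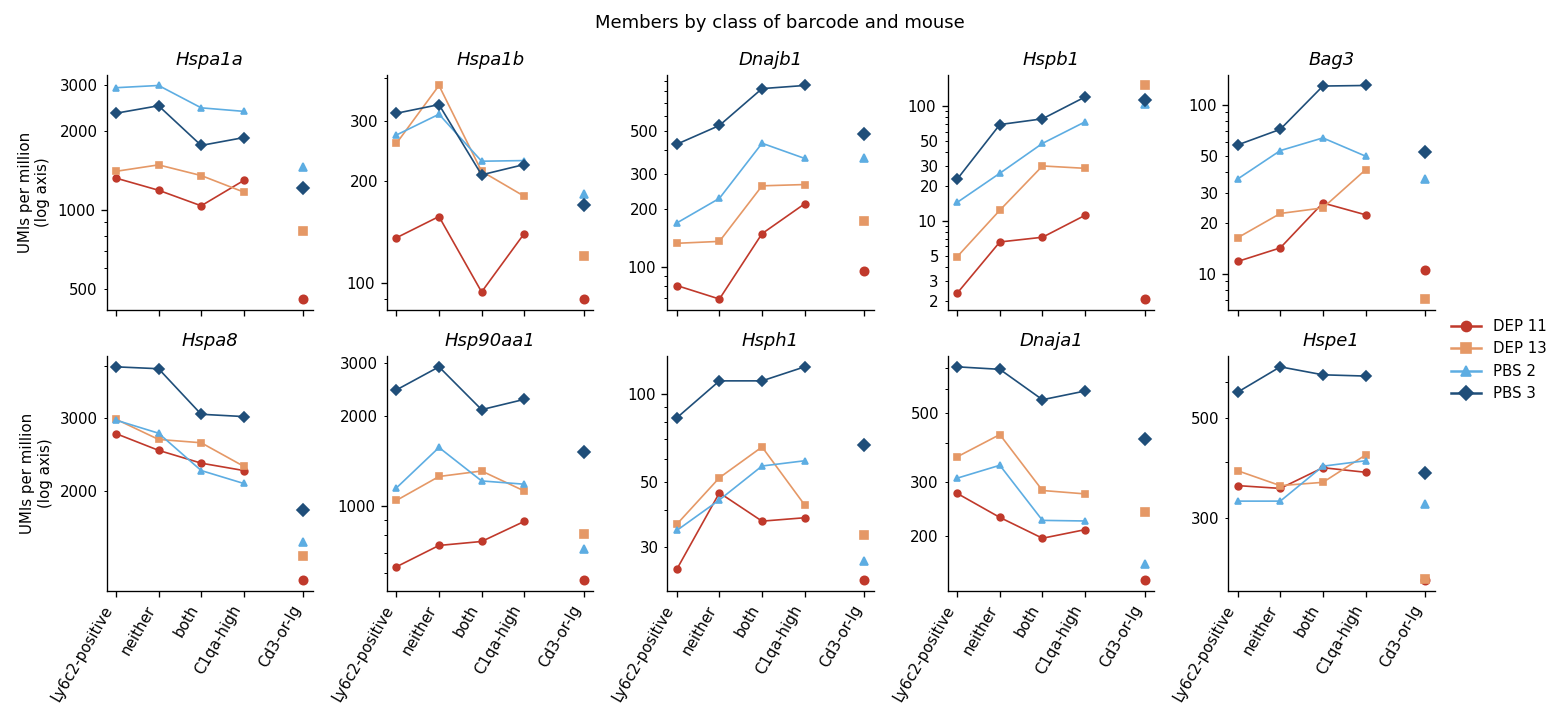
Level of each gene (CPM on a log axis, 1 panel per gene) in Ly6c2-positive barcodes, those meeting neither rule, those meeting both, C1qa-high barcodes and Cd3-or-Ig barcodes; each line or point is 1 mouse. Hspb1, Dnajb1 and Bag3 are higher in C1qa-high than in Ly6c2-positive barcodes in each mouse, and Hspa8 and Dnaja1 lower; Cd3-or-Ig levels are CPM of totals that include immunoglobulin RNA.

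The barcodes kept apart lay between the classes for Hspb1 in most mice. It was at 6.56 to 69.0 CPM over the mice in barcodes meeting neither rule and at 7.21 to 77.4 in those meeting both, between the classes in 3 of the 4 mice (in DEP 13 the barcodes meeting both, at 30.1, were above the C1qa-high level of 28.7). Dnajb1 was at 68.9 to 534 and at 149 to 825 in them, and not between the classes in every mouse. In DEP 11 the barcodes meeting neither, at 68.9, were below the Ly6c2-positive level of 80.8. In PBS 2 those meeting both, at 433, were above the C1qa-high level of 362. The barcodes meeting both rules were deeper (median 8091.5 UMIs) than the Ly6c2-positive (5067.5) or C1qa-high ones (6493), and whether they hold 1 cell or 2 was not tested.

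Markers of other cells were low in these classes except for immunoglobulin RNA. All 8 T cell markers summed to 16.8 to 47.2 CPM in Ly6c2-positive and 9.99 to 18.2 in C1qa-high barcodes. The 8 B and plasma cell markers summed to 3143 to 8462 and 3238 to 9137. All 4 epithelial markers reached 153 in Ly6c2-positive barcodes of PBS 3, against 1.63 to 3.92 in the other mice, and all 4 fibroblast markers 108 in those of PBS 2, against 1.63 to 3.85. With 1 mouse left out in turn, the difference of Dnajb1 stayed between -1.20 and -1.08 and that of Hspb1 between -2.42 and -2.37.

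**Figure D4:**
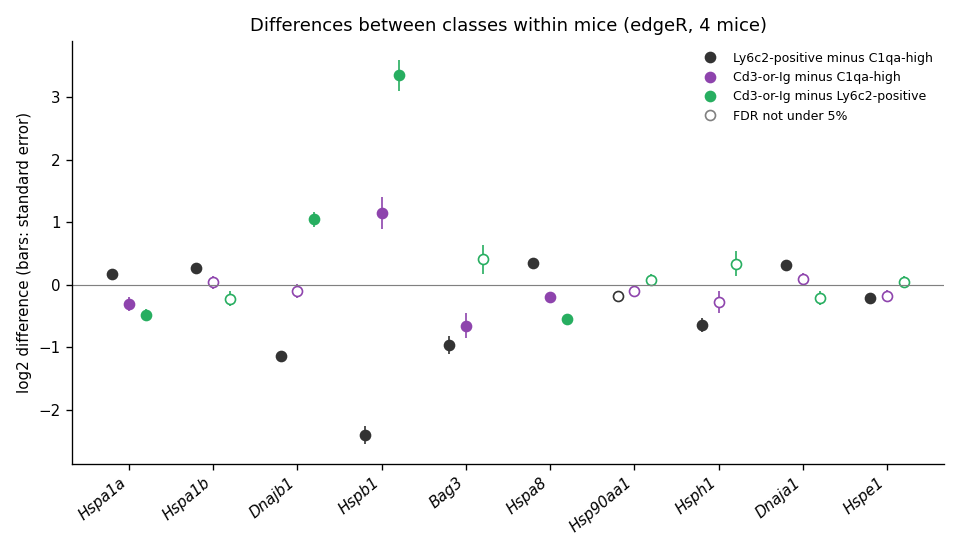
Log2 differences between classes within mice for each gene (edgeR, 4 mice), with standard errors as bars; filled points passed the FDR of 5% and open points did not; Hspb1 entered the comparisons with Ly6c2-positive barcodes through the other class. Hspb1 is lowest in Ly6c2-positive barcodes (black point at -2.40) and Dnajb1 next (-1.14), while Hspa8 and Dnaja1 lie above 0 in that comparison.

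The Cd3-or-Ig barcodes, 34 to 73 per mouse, were a mixture: 55 met the Cd3 rule alone (median 4004 UMIs) and 129 the immunoglobulin rule (median 13921 UMIs). They also carried macrophage RNA, all 9 macrophage markers being found at a sum of 14115 to 21306 CPM. Against C1qa-high barcodes, 4 of the 10 genes were called (edgeR quasi-likelihood test, FDR of 5%), beside 22.6% of 6858 genes. Hspb1 was higher (1.15, SE 0.26, edgeR adjusted p = 0.0015), and Bag3 (-0.65, SE 0.20, adjusted p = 0.0203), Hspa1a (-0.31, SE 0.11, adjusted p = 0.0422) and Hspa8 (-0.20, SE 0.07, adjusted p = 0.0402) were lower. With the immunoglobulin genes left out of the totals, Hspa1a (-0.28, edgeR adjusted p = 0.0553) and Hspa8 (-0.17, edgeR adjusted p = 0.0637) missed the threshold. Both were also lost without DEP 11 and without PBS 2, as was Bag3 without DEP 13 (-0.52, edgeR adjusted p = 0.0751) and without PBS 3 (-0.65, adjusted p = 0.188).

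Hspb1 in these barcodes was uneven. It was at 2.09 CPM in DEP 11 and 151 in DEP 13, against 105 in PBS 2 and 113 in PBS 3. DEP 13 was the highest mouse here and DEP 11, with 1 UMI, the lowest. In DEP 13, 4 of its 34 barcodes held 61 of the 64 Hspb1 UMIs. Of the 205 Hspb1 UMIs in all 4 mice, 186 came from barcodes with immunoglobulin RNA (35 of 129 barcodes) and 19 from those with Cd3 alone (10 of 55 barcodes). Over the fits that omit 1 mouse, the difference from C1qa-high barcodes ranged from 0.58 to 1.57. It was 0.05 (edgeR adjusted p = 0.964) with barcodes thinned to 1000 UMIs and 0.84 with DESeq2 (adjusted p = 0.578).

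Against Ly6c2-positive barcodes, 4 genes were called (25.8% of 6142 genes were), 3 of them beside Hspb1, which passed the filter through the Cd3-or-Ig class (a UMI in 24.5% against 4.93% of barcodes) and stood at 3.35 (SE 0.25) with no p-value given. Dnajb1 was higher by 1.05 (SE 0.12, edgeR adjusted p = 2.23e-08), while Hspa1a (-0.48, SE 0.09, edgeR adjusted p = 0.0002) and Hspa8 (-0.54, SE 0.07, edgeR adjusted p = 4.95e-07) were lower. The same number of genes, 4, was called with any 1 mouse left out. With barcodes thinned to 1000 UMIs, Hspa1a was at -0.07 (edgeR adjusted p = 0.846) and Hspa8 at -0.10 (adjusted p = 0.743), and without the mouse block Hspa1a (-0.45, adjusted p = 0.303) and Dnajb1 (1.04, adjusted p = 0.122) were not called.

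The difference between DEP and PBS mice was also set side by side in Ly6c2-positive and C1qa-high barcodes, by an interaction term. The genes were picked on this exposure difference, so the terms are a description and nothing is read from the calls: 1 of the 10 genes, Hsp90aa1, passed the FDR of 5% by edgeR, beside 0.676% of all 6513 genes (0.43% in the negative direction). Its term was -0.37 (SE 0.09), a more negative difference in Ly6c2-positive barcodes. Hsp90aa1 stood at 629 CPM in Ly6c2-positive and 891 in C1qa-high barcodes of DEP 11, 1046 and 1125 in DEP 13, 1151 and 1185 in PBS 2, and 2440 and 2270 in PBS 3. The gap was thus widest in DEP 11. Without DEP 11 the term was -0.16 and without PBS 3 it was -0.28, and neither passed the threshold, nor did it with DESeq2. For the other 9 genes the term lay between -0.25 (Bag3, SE 0.36) and 0.20 (Hsph1, SE 0.27).

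How the UMIs were spread over barcodes set the genes apart. Hspa8 was found in 98.6% of the 4771 barcodes, and its 239 highest barcodes (5%) held 15.7% of its UMIs, close to the 14.4% that the deepest 5% of barcodes held of all UMIs. Hspa1a was found in 91.6% of barcodes, with 22.7% of its UMIs in its highest 5%. Hspb1 was the other extreme: 11.3% of barcodes had any UMI of it, the highest 5% held 81.2% of its UMIs, and 100 barcodes had 5 UMIs or more, up to 30 in 1 barcode.

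Dnajb1 and Bag3 lay between. Dnajb1 was found in 57.3% of barcodes, its highest 5% held 39.8% of its UMIs, and 1 barcode of PBS 2 held 88. Bag3 was found in 22.0% of barcodes, with 48.7% of its UMIs in the highest 5% and 44 barcodes at 5 UMIs or more. Of these 44, 42 were in PBS mice (19 in PBS 2 and 23 in PBS 3) and 1 in each DEP mouse. Of the 100 barcodes with 5 or more Hspb1 UMIs, 32 were in PBS 2, 57 in PBS 3, 2 in DEP 11 and 9 in DEP 13. By class, C1qa-high barcodes of PBS 3 held 37 of them, and Ly6c2-positive barcodes held 1 over all mice.

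**Figure D5:**
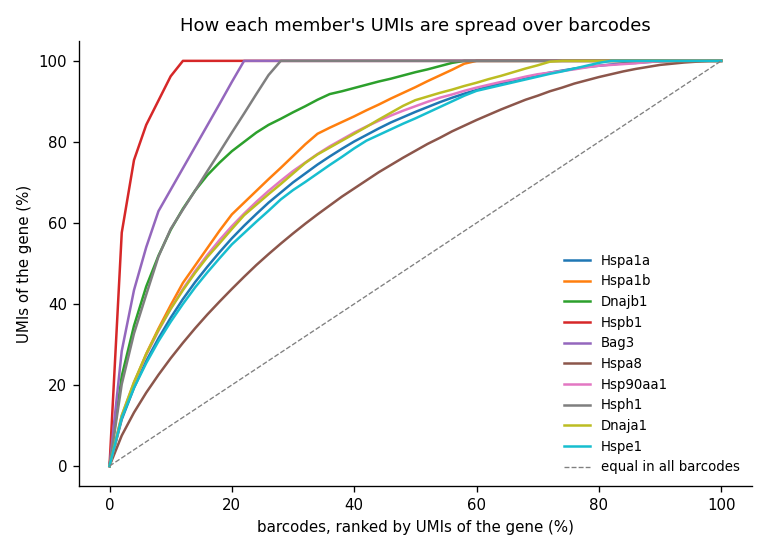
Share of each gene's UMIs (%) held by its highest barcodes, ranked along the horizontal axis (% of 4771 barcodes); the dashed line is an equal spread. Hspb1 rises fastest, with 81.2% of its UMIs in 5% of barcodes, then Bag3 (48.7%), while Hspa8 lies nearest the dashed line.

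For Hspa1a, Bag3 and Hspb1, the share of barcodes with a UMI was lower in both DEP mice than in both PBS mice, whereas that of Hspa8 was 98.2% to 98.9% and highest in DEP 11. Hspa1a was found in 81.2% of barcodes in DEP 11 (exact 95% interval 78.9% to 83.4%), 87.0% in DEP 13, 97.3% in PBS 2 and 96.8% in PBS 3. Bag3 was found in 8.62% (7.10% to 10.3%), 14.7%, 22.3% and 35.1% (32.8% to 37.6%) in that order, and Hspb1 in 2.46%, 5.04%, 14.1% and 18.4% (16.5% to 20.4%). The intervals cover counting error only. The mice differed in depth, and after each barcode was thinned to 1000 UMIs the shares of Hspa1a were 52.8% (DEP 11) and 57.8% (DEP 13), against 76.2% (PBS 2) and 77.4% (PBS 3). Those of Bag3 were 1.97% and 2.67%, against 4.09% and 8.03%, and those of Hspb1 were 0.821% and 2.07%, against 3.78% and 6.64%. No class here is known to lack heat shock RNA, so the 1614 barcodes with under 500 UMIs (median 287.5, against 5838 in the barcodes used) were taken as a view of RNA outside deep cells. Hspa1a was found in 36.2% of them, Dnajb1 in 6.88%, Bag3 in 1.98% and Hspb1 in 0.991%. At so few UMIs per barcode a low share does not mean a low level: Bag3 was at 72.1 CPM over the 4 mice (57.2 in the barcodes used), Hspb1 at 33.9 (50.6), Hsp90aa1 at 2970 (1420) and Hsph1 at 261 (64.0).

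The make-up of those shallow barcodes differed between the HSP70 copies. Hspa1b was at 1136 CPM in DEP 11 and 3307 in DEP 13, against 2432 in PBS 2 and 2302 in PBS 3 among them; in the barcodes used it was at 129 to 244 CPM. Hspa1a was at 1795, 4066, 3590 and 3148 in the same order. Over the 4 mice, the shallow barcodes held 1374 Hspa1a and 973 Hspa1b UMIs, beside 58107 and 6632 in the barcodes used. The DEP 13 level of both copies was the highest of the 4 mice in the shallow barcodes, whereas in the barcodes used DEP 13 was below both PBS mice. Mitochondrial shares there were 19.9% to 23.7%.

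Across barcodes of 1 mouse, the 10 genes varied together to unequal degrees. Pearson's r of log2(1 + UMIs per 10000) averaged 0.54 over the 4 mice for Hspa1a with Hspa1b (0.30 after each barcode was thinned to 1000 UMIs) and 0.47 for Hspa1a with Hsp90aa1 (0.37 thinned). Dnajb1 reached 0.32 with Hsp90aa1 and 0.31 with Hspa1a. Hspb1 was the least tied to the rest, with means from 0.03 (Hspa8) to 0.15 (Dnajb1). These values describe 675 to 1582 barcodes per mouse that share a library and differ in depth.

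Among 6609 genes, those whose level was most like the sum of the 10 genes included Jun (mean r 0.40), Hsp90ab1 (0.34), Ubb (0.29), Fos (0.28), Gm8797 (0.28), Hmox1 (0.28), Btg2 (0.26), Klf6 (0.24) and Hspa1l (0.22). They include immediate early genes (Jun, Fos, Btg2, Klf6), which respond within minutes to many stimuli, the stress-inducible polyubiquitin gene Ubb, and the constitutive HSP90 gene Hsp90ab1. Those most like Hspa1a alone included Jun (0.37), Ubb (0.27), Gm8797 (0.25), Hspa1l (0.25), Hmox1 (0.24), Hsp90ab1 (0.23), Fos (0.20), Rhob (0.20) and Klf6 (0.19).

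The 14 immediate early genes listed summed to 11290 CPM in DEP 11 and 8873 in DEP 13, against 13390 in PBS 2 and 9951 in PBS 3, so their groups overlapped and their order was not that of the 10 heat shock genes. Their DEP minus PBS differences were negative for 13 of 14 (51.4% of all genes), with a median of -0.20, beside -0.87 for the heat shock genes. Between classes, 5 were higher and 3 lower in Ly6c2-positive barcodes (edgeR, FDR of 5%), from 1.35 for Nr4a1 to -0.89 for Egr1, where 20.5% of all genes were higher and 19.5% lower. Their part in the differences of the heat shock genes was not tested.

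Of 71 other chaperone and heat shock genes, 55 were tested between Ly6c2-positive and C1qa-high barcodes: 7 were higher, 11 lower and 37 not called (edgeR quasi-likelihood test, FDR of 5%), with a median of 0.06 beside -0.01 for all genes. The shares called higher and lower over all genes were 20.5% and 19.5%. Among the HSP40 genes, Dnajb4 was lower (-0.85, SE 0.18, edgeR adjusted p = 0.000572), as were Dnajc3 (-0.41) and Dnajb2 (-0.88), and Dnaja2 (0.26) and Dnajc8 (0.21) were higher. Subunits of the cytosolic chaperonin, which folds actin and tubulin, were called higher for Cct8 (0.44, SE 0.08, edgeR adjusted p = 4.58e-05), Cct5 (0.27) and Tcp1 (0.26) and lower for Cct3 (-0.24). The endoplasmic reticulum chaperones Hspa5 (-0.28) and Hsp90b1 (-0.17) were lower, and the HSP90 co-chaperone Chordc1 was higher (0.40).

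Among regulators and other heat shock targets, Ubb (-0.44, SE 0.05, edgeR adjusted p = 4.81e-08) and the autophagy receptor gene Sqstm1 (-0.55) were lower in Ly6c2-positive barcodes, and the cold-inducible Rbm3 was higher (0.66, SE 0.07, edgeR adjusted p = 6.09e-08). The 8 tested HSP70 co-chaperone and BAG genes beside Bag3 had a median of 0.07, and Sil1 came nearest to the threshold (-0.42, edgeR adjusted p = 0.126). Between DEP and PBS mice, 47 of 58 of the other chaperone genes had a negative difference (51.4% of all genes did), with a median of -0.12 and the 8 tested BAG and HSP70 co-chaperone genes at a median of -0.12.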

How the data were processed

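The mouse was the replicate. The authors deposited 1 table of raw UMI counts per gene and barcode. Per the submitters' processing notes it was made with Cell Ranger, STAR 2.6.1a, R 3.5.1 and mm10; the annotation, the Cell Ranger version and any barcode filter were not given in the sources used here. Genes were named from GENCODE M21 (28339 of 28692). The 10 genes, the other lists, the classes and the tests were chosen with earlier results of these data known. The named genes were the 10, up to 3 called genes per direction and group of the other lists, and the 10 most alike genes by mean correlation, of which 1 is not reported here.

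Barcodes with at least 1000 UMIs were classed as described. No doublets were called or removed, and barcodes that met both of the last rules stayed apart. The barcodes' letters appear rewritten, and 36 codes occurred in more than 1 library. UMIs were summed per mouse and class. Genes over 1 CPM in at least 2 sums and with a UMI in 5% of barcodes were tested with edgeR 4.0.16 (R 4.3.3, TMM scaling, quasi-likelihood test, Benjamini-Hochberg over all tested genes, FDR of 5%), with the mouse as a block between classes, since both classes came from the same animal. The scripts were tested on simulated data. Alternatives were DESeq2 1.42.0, voom of limma 3.58.1, RLE scaling, other gene and barcode filters, other class limits, thinning to 1000 UMIs and leaving out each mouse. Leaving out the immunoglobulin genes was added after seeing the data. Each mouse gave 4357153 to 10063287 UMIs.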

Additional observations from a re-analysis of the deposited data

Results flagged for a closer look

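For Hsp90aa1 the interaction term, the log2 difference between DEP and PBS mice in Ly6c2-positive minus that in C1qa-high barcodes, was -0.37. It is listed because it passed the FDR of 5% over all genes by edgeR. The gene was picked on its difference between DEP and PBS mice, so the term is a description and nothing is read from the call, which was lost without DEP 11 (-0.16), without PBS 3 (-0.28) and with DESeq2 (-0.36). The within-mouse difference (Ly6c2-positive minus C1qa-high, log2 of CPM) was -0.50 in DEP 11 and -0.11 in DEP 13, against -0.04 in PBS 2 and 0.10 in PBS 3, so that the DEP mice were both below the PBS mice and DEP 11 was the farthest from the others.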

How the results depend on the processing

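No paired analysis was made between DEP and PBS mice, because each animal had a single exposure and the labels name no pairs. Between classes the mouse was the block. The Ly6c2-positive against C1qa-high count of 9 called genes became 2 (of 8 tested) with barcodes thinned to 1000 UMIs and 1 without the mouse block, was 6 with DESeq2, where Hspa1a (adjusted p = 0.0534), Hspa1b (0.0827) and Hspe1 (0.0766) missed the threshold, and was 8 to 9 with 1 mouse left out. The Cd3-or-Ig against C1qa-high count of 4 became 2 with C1qa at 50 per 10000, with RLE scaling and with the immunoglobulin genes left out, 1 when thinned, and 0 with DESeq2 (965 of 6858 genes called) and without the block (1151 called); it was 2 to 3 with 1 mouse left out (2 without DEP 11 and 2 without PBS 2). When thinned, Hspa1a (0.05) and Hspa8 (0.20) changed sign in this comparison. The Cd3-or-Ig against Ly6c2-positive count of 4 became 1 (of 7 tested) when thinned and 2 without the block, and was 4 to 4 with 1 mouse left out. The interaction count of 1 became 0 at 500 UMIs, with Ly6c2 at 2 UMIs, with C1qa at 50 per 10000, with an immunoglobulin share of 5%, when thinned and with DESeq2, and was 0 to 1 with 1 mouse left out. The median DEP minus PBS difference (-0.87) was -1.28 to -0.38 with 1 mouse left out. Thinning left 766 of 1989 genes called between Ly6c2-positive and C1qa-high barcodes, against 2609 of 6513. Over all single-gene class differences and settings, 503 values stayed on their side of the threshold, 49 called values were no longer called, 11 became called and 2 called values changed sign.

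Limits. With 2 mice per group, 1 library per mouse and PBS 3 highest for 9 of 10 genes, the exposure contrast rests on few animals. Hspb1 and Bag3 had few UMIs per class in DEP mice (3 each for Hspb1 in Ly6c2-positive barcodes), which limits their fold changes. How reads were shared between Hspa1a and Hspa1b was not tested.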
